A study of Mus musculus with 7 samples.

Results

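Methylation of single cytosines was compared between 2 clones of Uhrf1-/- mouse embryonic stem cells, a 3KR rescue that carries human UHRF1 with the lysine changes K667R, K668R and K670R, and a wild-type rescue (WT rescue) that carries unaltered human UHRF1. The comparison takes in all 18189 cytosine sites of the table that holds both rescues, with no choice by measured level. Of these, 11900 had at least 10 reads in both rescues and entered the counts by size, and the other 6289 had 5 to 9 reads in the shallower rescue. The study asked how acetylation of UHRF1 by the acetyltransferase MOF relates to the upkeep of DNA methylation. All cells were of the J1 line and were kept in medium with serum and leukemia inhibitory factor, and the table also holds 2 wild-type libraries and 2 Uhrf1-/- libraries. Both rescues lack mouse Uhrf1 and received a flag-myc-tagged human UHRF1 plasmid, were selected with hygromycin and were grown from picked single colonies. Each rescue is therefore 1 clone and 1 library, with no replicate check, and the effect of the lysine changes cannot be told apart from other differences between the clones, such as the level of the transgene. Sizes are given beside the gaps between the 2 wild-type and between the 2 Uhrf1-/- libraries, which the labels do not describe as separate cultures.

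UHRF1 recognises hemimethylated CpG, the state in which only the parental strand carries the mark after replication, and brings the maintenance methyltransferase DNMT1 to it. Without it, methylation is diluted as cells divide, while de novo methyltransferases, which are active in embryonic stem cells, can still place some. Arginine keeps the positive charge of lysine but cannot be acetylated or ubiquitylated at that position.

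Methylation was read by reduced representation bisulfite sequencing, in which restriction enzymes select CpG-rich fragments and bisulfite converts unmethylated cytosines. The sites summed to 393086 reads in the 3KR rescue and 668870 in the WT rescue, with medians of 14 and 22 reads per site. The other libraries summed to between 257860 and 615917 reads, with medians of 10 to 16. A level is the percent of reads at a site that were methylated, and the level of a group of sites is the unweighted mean of those percents. Sites that lie on the same fragment share reads, and intervals cover counting error only, because reads carry no molecular identifiers.

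The promoters at which the rescues differed most show how the measured cytosines lie in the sequence. Of 55 RefSeq promoter windows of 300 bases with at least 3 sites, 4 (7.27%) lay lower by at least 20 percentage points in the 3KR rescue and none was that much higher. Between the wild-type libraries the same rule found 0 of 55 windows lower and 2 (3.64%) higher in library 2. Between the Uhrf1-/- libraries it found none in either direction. These libraries could have as few as 5 reads at a site. The named windows were chosen by the contrast of the rescues, so their values are a description. The windows of 3 of these genes are printed from RefSeq on build GRCm38.p6, each on the strand of its gene, with the measured cytosines in capitals, and Psd4 is added as a window that was low in both rescues. The windows are Qrich2, a gene for a sperm flagellum protein, at chr11:116454298-116454597 on the minus strand; Nphs1, which encodes the kidney slit-diaphragm protein nephrin, at chr7:30459808-30460107 on the plus strand; Rnf224, a RING finger gene, at chr2:25236738-25237037 on the minus strand; and Psd4, which encodes an exchange factor for ARF GTPases, at chr2:24386366-24386665 on the plus strand.
Qrich2: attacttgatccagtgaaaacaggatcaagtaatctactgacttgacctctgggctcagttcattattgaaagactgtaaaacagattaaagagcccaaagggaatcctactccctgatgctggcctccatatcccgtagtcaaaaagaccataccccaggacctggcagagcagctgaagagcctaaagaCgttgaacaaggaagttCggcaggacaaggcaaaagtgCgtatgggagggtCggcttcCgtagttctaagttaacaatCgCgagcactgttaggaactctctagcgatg
Nphs1: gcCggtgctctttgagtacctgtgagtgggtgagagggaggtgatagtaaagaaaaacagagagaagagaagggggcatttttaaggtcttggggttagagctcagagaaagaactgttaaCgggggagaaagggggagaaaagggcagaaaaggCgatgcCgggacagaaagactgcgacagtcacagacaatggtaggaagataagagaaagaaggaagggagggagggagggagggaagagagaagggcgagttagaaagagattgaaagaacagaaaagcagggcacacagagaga
Rnf224: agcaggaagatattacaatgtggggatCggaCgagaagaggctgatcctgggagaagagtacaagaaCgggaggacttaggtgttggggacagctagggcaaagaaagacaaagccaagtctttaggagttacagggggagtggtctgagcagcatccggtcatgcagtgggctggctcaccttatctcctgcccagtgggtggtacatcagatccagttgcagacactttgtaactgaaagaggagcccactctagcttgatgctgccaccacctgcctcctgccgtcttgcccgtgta
Psd4: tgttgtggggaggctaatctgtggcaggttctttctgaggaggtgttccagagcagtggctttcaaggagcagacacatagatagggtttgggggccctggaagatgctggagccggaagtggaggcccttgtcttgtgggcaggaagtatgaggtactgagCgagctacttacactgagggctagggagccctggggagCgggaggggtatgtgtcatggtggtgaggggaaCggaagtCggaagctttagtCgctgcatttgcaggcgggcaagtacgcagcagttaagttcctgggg

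At the 7 measured cytosines of the Qrich2 window the WT rescue ranged from 16.7% to 66.7%, and the 3KR rescue read 0% at 5 of them and 11.1% at the other 2, from 18 reads each. The wild-type libraries ranged from 16.7% to 89.5% there and the Uhrf1-/- libraries from 0% to 23.1%. The window mean of the 3KR rescue, 3.17%, lay below the 6.64% and 11.9% of the Uhrf1-/- libraries. At single sites its level lay below, between or above theirs. In the Nphs1 window the first 3 cytosines read 46.2%, 56.3% and 63.5% in the WT rescue against 6.45%, 7.63% and 0% in the 3KR rescue. They read 21.4%, 19.2% and 28.6% in wild-type library 1 and 30%, 50% and 35.9% in library 2. The WT rescue thus stood above both wild-type libraries at these 3 sites. The fourth was at 0% in the WT rescue and at 1.92% in the 3KR rescue, so the window holds both kinds of site within a few bases. In the Rnf224 window the cytosines at bases 28 and 32 of the printed sequence read 62.0% and 72.5% in the WT rescue and 7.69% and 20% in the 3KR rescue. At those bases the wild-type libraries read only 0% and 26.3% in library 1 and 30.8% and 50% in library 2, so the WT rescue stood above both. The 5 cytosines of the Psd4 window averaged 50% and 73.4% in the wild-type libraries, 9.38% in the WT rescue and 0% in the 3KR rescue. Here both rescues stood far below both wild-type libraries. The remaining window past 20 points was that of the predicted gene Gm42008, with 25.6% in the WT rescue and 4.50% in the 3KR rescue. Its wild-type libraries read 5% and 22.1%, so the WT rescue stood above both there too.

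Most of the other promoter windows carried little methylation in either rescue. In the 47 windows with a wild-type mean under 5%, the highest 3KR level was 7.69% and the highest WT rescue level 9.56%. At the 79 sites in windows with 0 to 9 CpG the mean was 39.5% in wild type, 35.8% in the WT rescue and 11.95% in the 3KR rescue. In windows with 10 to 19 CpG it was 4.87%, 4.08% and 2.90%, and at the 59 sites in windows with 30 or more CpG it was 0.18%, 0.35% and 0.24%. Windows poor in CpG thus had both the higher wild-type level and the larger difference. The Gm42008 window, with 13 CpG, lies in the class of 10 to 19. All 553 sites that fell in RefSeq windows were the cytosine of a CpG.

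Across all sites the level of the 3KR rescue was 33.5% of that of the WT rescue. This ratio of mean levels is called the share below. Both rescues were made from Uhrf1-/- cells, so it sets 2 clones side by side and does not measure a loss from one to the other. Among the 11900 sites with enough reads, 6786 (57.0%) lay lower in the 3KR rescue by 20 points or more and 115 (0.966%) higher by as much. The wild-type libraries differed by that much in both directions, with 725 of 7991 sites (9.07%) lower and 1065 (13.3%) higher in library 2. Of 9373 sites in the pair of Uhrf1-/- libraries, 708 (7.55%) were lower and 788 (8.41%) higher. Sites thus differed in both directions between replicate libraries, while the gap between the rescues ran almost entirely downward. The difference between the rescues had a median of -27.9 points, with the 5th percentile at -80.0 and the 95th at 2.80. Between the wild-type libraries these percentiles were -28.1 and 34.2 around a median of 0. Differences of at least 60 points downward were found at 2242 sites between the rescues, at 29 between the wild-type libraries and at 21 between the Uhrf1-/- libraries.

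**Figure D1:**
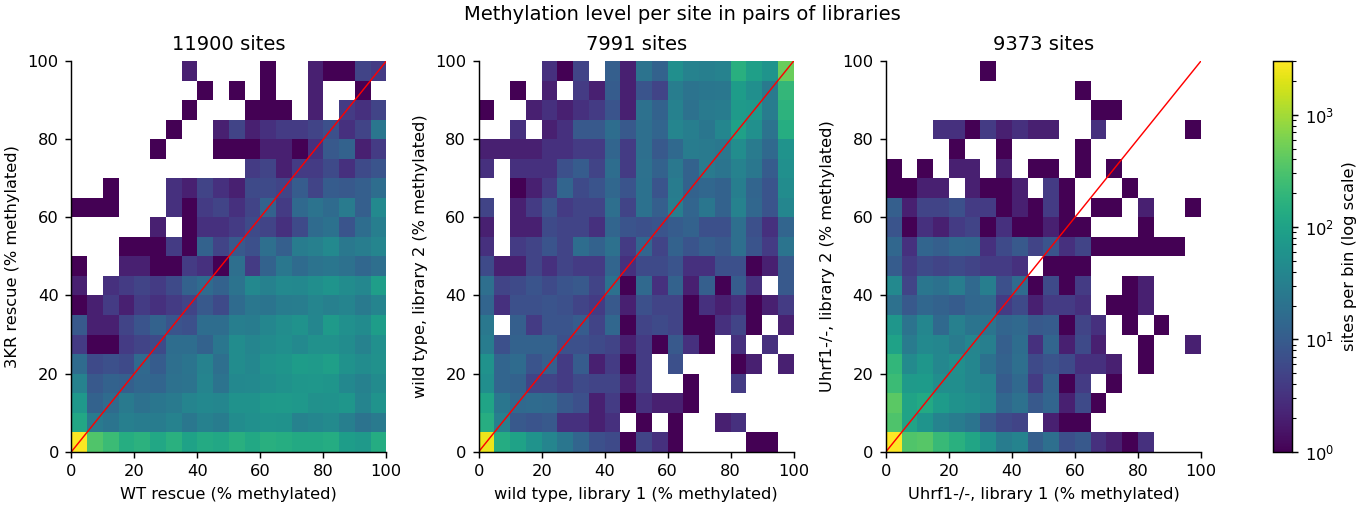
Methylation level of each site in the 3KR rescue against the WT rescue (left, 11900 sites), and in library 2 against library 1 of wild type (middle, 7991 sites) and of Uhrf1-/- (right, 9373 sites), with colour for the number of sites per bin of 5 points on a log scale and a red line of equality. The sites of the rescues lie mostly below the line, and the pairs of replicate libraries spread to both sides of it.

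Fisher's exact test on the reads of each site, two-sided and adjusted by the Benjamini-Hochberg method, called 5568 sites (46.8%) with less methylation and 45 (0.378%) with more in the 3KR rescue at an adjusted p under 0.05. This test compares 2 libraries, not the conditions. Between the wild-type libraries it gave 37 sites lower (0.463%) and 86 higher (1.08%), and between the Uhrf1-/- libraries 12 lower (0.128%) and 3 higher (0.032%).

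The level of the 3KR rescue was higher at sites with a higher level in wild-type cells. Where the wild-type mean was over 90%, the mean was 76.5% in the WT rescue and 29.3% in the 3KR rescue, and 86.2% of sites with enough reads were at least 20 points lower. Where it was over 40% and up to 60%, the means were 54.7% and 15.7%. Over 5% and up to 20%, they were 17.6% and 3.85%. The share was 38.3% in the highest class and lowest, at 21.9%, in the class over 5% to 20%. Below that class it was higher again: the share was 34.0% at over 0% to 5%, from means of 5.82% and 1.98%, and 32.1% at sites unmethylated in wild type, from means of 4.87% and 1.56%. The mean of the Uhrf1-/- libraries was 23.9% of the WT rescue level in the highest class, 19% at over 5% to 20%, 40.1% at over 0% to 5% and 32.6% at 0%. At over 5% to 20% the Uhrf1-/- libraries read 3.27% and 3.42%, beside the 3.85% of the 3KR rescue. At over 90% they read 17.6% and 18.95%, beside the 29.3% of the 3KR rescue.

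**Figure D2:**
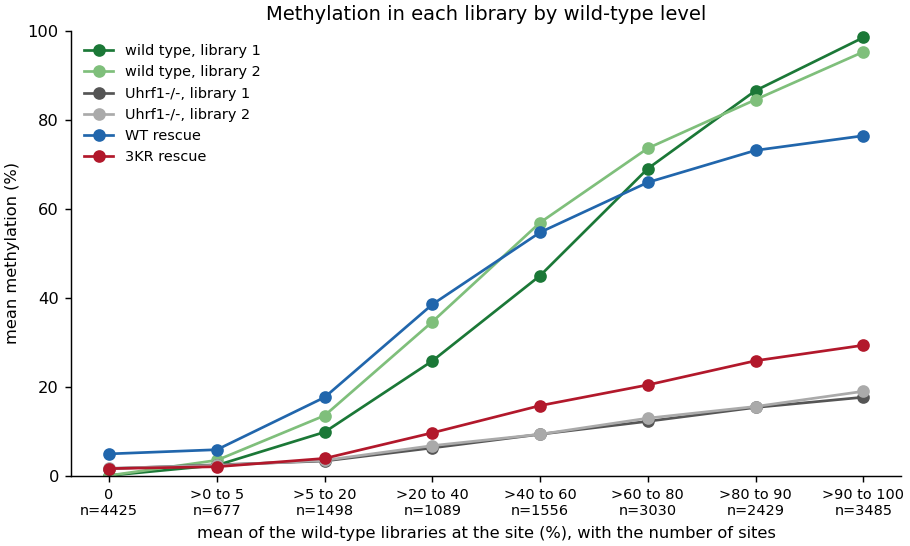
Mean methylation of each of the 6 libraries (vertical axis, percent) in classes of the mean of the wild-type libraries (horizontal axis, percent, with the number of sites), with 1 point per library. The 3KR rescue runs from 1.56% to 29.3%, below the WT rescue in every class; it lies between or below the Uhrf1-/- libraries in the 2 lowest classes and above both in the others.

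Sites that were at 80% or more in both wild-type libraries, with at least 10 reads in all 6 libraries, show how the methylation of the 3KR rescue was spread. There were 819 such sites. In the 3KR rescue their median was 26.7%, with the 10th percentile at 0% and the 90th at 54.3%. Most were partly methylated: 414 sites (50.5%) lay from 20% to under 50%, 200 (24.4%) above 0% and under 20%, and 90 (11.0%) at 0%. At 80% or more there were 11 sites (1.34%), against 370 (45.2%) in the WT rescue. In the Uhrf1-/- libraries 215 and 239 of these sites were at 0%, 2 and 4 at 80% or more, and the medians were 14.3% and 15.4%. The 3KR rescue therefore had fewer fully unmethylated sites than either Uhrf1-/- library and a higher median.

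At the opposite end, 958 sites were at 0% in both wild-type libraries with at least 10 reads in all 6 libraries. The 3KR rescue averaged 1.47% and the WT rescue 3.70%, beside 1.00% and 1.31% in the Uhrf1-/- libraries. In the WT rescue 37 of them read 20% to under 50%, 12 read 50% to under 80% and 4 read 80% or more. In the 3KR rescue 18 read 20% to under 50% and none more. Methylation at sites that wild-type cells leave bare was thus found more in the WT rescue than in the 3KR rescue.

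To ask whether the share depended on where a site lies, classes were compared at sites with a wild-type mean of at least 50%, since classes differ in their wild-type level. The authors' annotation counted 1404 such sites as promoter, 1090 as exon, 4252 as intron and 3146 as intergenic. The share was 32.3%, 34.1%, 36.0% and 34.6% in these classes. The mean levels in the 3KR rescue were 22.6%, 24.3%, 25.4% and 24.5%. The differences were of like size, from -45.2 points in introns to -47.5 points in promoters. CpG islands, the CpG-dense stretches at which most promoters lie, were the class with the lowest share, at 19.1%, but only 47 of their sites were methylated enough to enter. Of these, 10 lie in 1 intronic block of Camta1 in which the 3KR rescue read 0% at every site. Without that block, a choice made after seeing the data, the share in islands was 26.6% over 37 sites. Island shores had a share of 30.2% over 750 sites and the rest of the genome 35.2% over 9095. The Uhrf1-/- libraries showed the same order, at 7.01%, 15.9% and 21.8% of the WT rescue level, with 7.86% in islands without the Camta1 block.

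Distance from the nearest transcript start gave a shallow gradient. The share was 32.1% within 500 bases, 33.3% from 1000 to 2000 bases, 35.8% from 5000 to 20000 bases and 36.5% from 20000 to 50000 bases, and 34.6% beyond that. The Uhrf1-/- libraries moved with it, from 18.3% within 500 bases to 22.4% from 20000 to 50000 bases. Over the 19 autosomes, with all sites, the share ran from 28.8% on chromosome 19 to 38.2% on chromosome 18, with a median of 34.0%. The difference was smallest on chromosome 17, where the WT rescue averaged 35.0% and the 3KR rescue 12.04%. That chromosome holds a stretch of 211 sites at the ribosomal RNA gene copy, where the means were 5.2% and 2.5%. On chromosome X, with 99 sites, the means were 49.8% and 16.0%, and on the mitochondrial genome, with 39 sites, 1.06% and 0.78%.

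**Figure D3:**
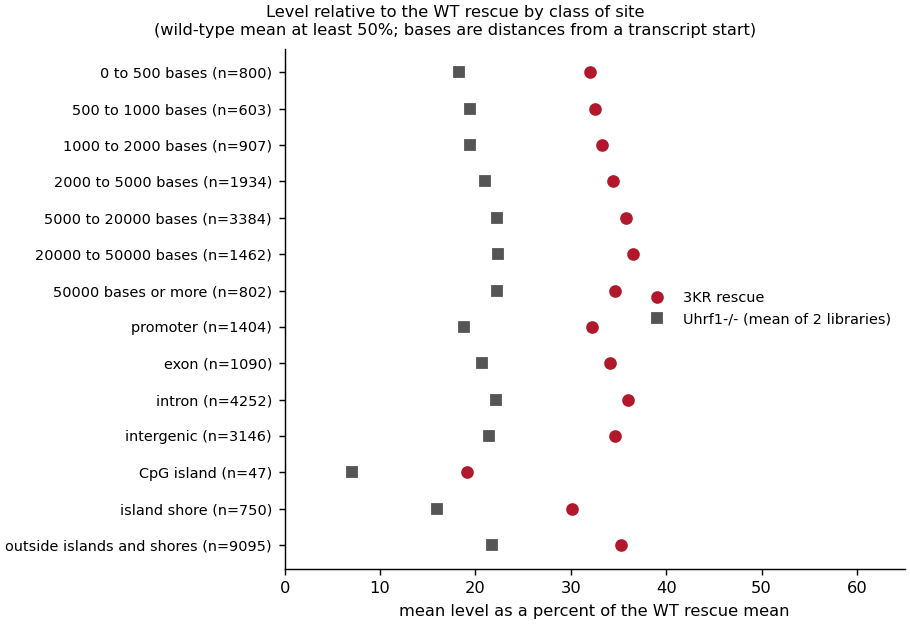
Level of the 3KR rescue (red circles) and of the mean of the 2 Uhrf1-/- libraries (grey squares) as a percent of the WT rescue level (horizontal axis), for sites with a wild-type mean of at least 50% in classes by distance to a transcript start, annotation and CpG island. The 3KR rescue lies between 32.1% and 36.5% in the classes by distance and at 19.1% in islands, of which 10 of 47 sites lie in 1 block of Camta1.

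By gene, 582 genes had at least 5 sites with enough reads within the gene or 1000 bases of it, counting genes with the same sites once. The mean over a gene's sites lay lower by 20 points or more at 319 genes (54.8%) in the 3KR rescue and that much higher at none. Between the wild-type libraries 15 genes (2.58%) were lower and 26 (4.47%) higher. Between the Uhrf1-/- libraries 4 (0.687%) were lower and 11 (1.89%) higher. Both of these gaps use the same sites, where these libraries could have as few as 5 reads. The gene just inside the threshold was Trak1, at -20.2 points, and the gene just outside was Ung, at -19.9998 points. All 253 genes with a wild-type mean of at least 50% had a lower mean in the 3KR rescue, 245 of them by at least 20 points. Their share had a median of 34.2%, with the 10th percentile at 15.2% and the 90th at 54.8%. In these 253 genes the 3KR rescue was above both Uhrf1-/- libraries at 173, between or equal to them at 56 and below both at 24. Of the 237 genes with a wild-type mean under 20%, 16 (6.75%) were at least 20 points lower.

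The methylated genes with the most sites were chosen by their wild-type level and not by the rescues, and 6 of the 12 lie on chromosome 8. Camta1, which encodes a calmodulin-binding transcription activator, read 68.5% and 73.3% in wild type, 11.5% and 12.99% without Uhrf1, 72.9% in the WT rescue and 6.59% in the 3KR rescue over 23 intronic sites. The 3KR level was below both Uhrf1-/- libraries. Wwox, which encodes an oxidoreductase with WW domains, read 84.8% and 68.7%, 10.46% and 14.9%, 76.9% and 35.3% in the same order over 20 intronic sites. Zfhx3, a zinc-finger homeobox transcription factor gene, read 85.9% and 80.4%, 13.7% and 19.98%, 72.3% and 29.8% over 19 sites. In both Wwox and Zfhx3 the 3KR rescue stood above both Uhrf1-/- libraries and below both wild-type libraries and the WT rescue.

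The other genes of this set spread between these patterns. Grin3b, which encodes a subunit of the NMDA glutamate receptor, read 54.1% in the WT rescue and 5.38% in the 3KR rescue over 13 sites, within the range of the Uhrf1-/- libraries, 14.8% and 0%. Myo18b, an unconventional myosin gene, read 61.8% and 14.0%, with the 3KR rescue below Uhrf1-/- at 19.02% and 19.8%. Dlgap2, a gene for a postsynaptic scaffold protein, read 68.8% and 16.7%, between the Uhrf1-/- libraries at 21.4% and 12.6%. Pdia5, a protein disulfide isomerase gene, read 85.1% in the WT rescue, 35.5% in the 3KR rescue, and 23.8% and 13.9% in Uhrf1-/-. Gse1, Gm39273, Hydin and Exoc6b read 18.3%, 28.4%, 18.0% and 23.6% in the 3KR rescue, against 53.5%, 74.1%, 40.9% and 53.5% in the WT rescue. Hydin, a gene for a protein of motile cilia, had the smallest difference of the 12, -22.9 points.

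The 8 genes with the largest differences downward and the 6 with the highest share were picked by the contrast itself, so their values only describe its ends. Atp2b2, which encodes a plasma-membrane calcium pump, read 85.5% in the WT rescue and 0% in the 3KR rescue over 5 intronic sites, beside 70.0% and 91.3% in wild type and 0% and 4.44% in Uhrf1-/-. Kif19a, a kinesin gene, read 73.3% and 0% over 5 exonic sites, with 42.5% and 45.6% in wild type, so the WT rescue stood above both wild-type libraries. Each of these zeros rests on 10 reads per site in the 3KR rescue. The sites of each gene lie close enough to share reads, and 0 of 10 reads allows a level of up to 30%. Sytl1, whose product binds the small GTPase RAB27, read 85.5% in the WT rescue and 7.07% in the 3KR rescue, beside 11.1% and 38.9% in wild type and 18.1% and 0% without Uhrf1. Both wild-type libraries and Uhrf1-/- library 2 had only 6 reads at each Sytl1 site, and the sites lie close enough to share reads. With that limit, the WT rescue stood above both wild-type libraries here. Sdccag8, a centrosomal protein gene, likewise read 82.0% in the WT rescue against 48.97% and 53.2% in wild type, and 7.67% in the 3KR rescue. Klhl31, Bcas3, Gm15455 and Gm46762 read 11.0%, 18.0%, 4.10% and 2.50% in the 3KR rescue, against 85.2%, 91.3%, 84.0% and 74.5% in the WT rescue.

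At the other end, Fto, the gene of an RNA demethylase, read 72.9% in the WT rescue and 64.9% in the 3KR rescue over 5 intronic sites, with 45.4% and 35.0% in Uhrf1-/-. Lpcat3, a phospholipid acyltransferase gene, read 90.6% and 68.0%, with 50% and 32.5% in Uhrf1-/-. In both genes the Uhrf1-/- libraries also read over 30%. In Pced1b, the 11 intronic sites read 90.003% and 62.8% in the rescues and 18.3% and 20.1% in Uhrf1-/-. Svopl read 85.7% and 57.1% in the rescues and 21.3% and 21.9% in Uhrf1-/-, and Ntn1, the netrin-1 guidance gene, 60.3% and 45.2% with 23.5% and 19.5% in Uhrf1-/-. In wild type Ntn1 read 95.2% and 88.2%, so the WT rescue stood below both. In its block of 4 exon sites the WT rescue read 55%, from 10 reads per site. Slc4a8, a bicarbonate transporter gene, read 56.7% and 38.9% with 0% and 18.8% in Uhrf1-/-. In Pced1b, Svopl, Ntn1 and Slc4a8 the 3KR rescue stood more than 20 points above both Uhrf1-/- libraries.

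**Figure D4:**
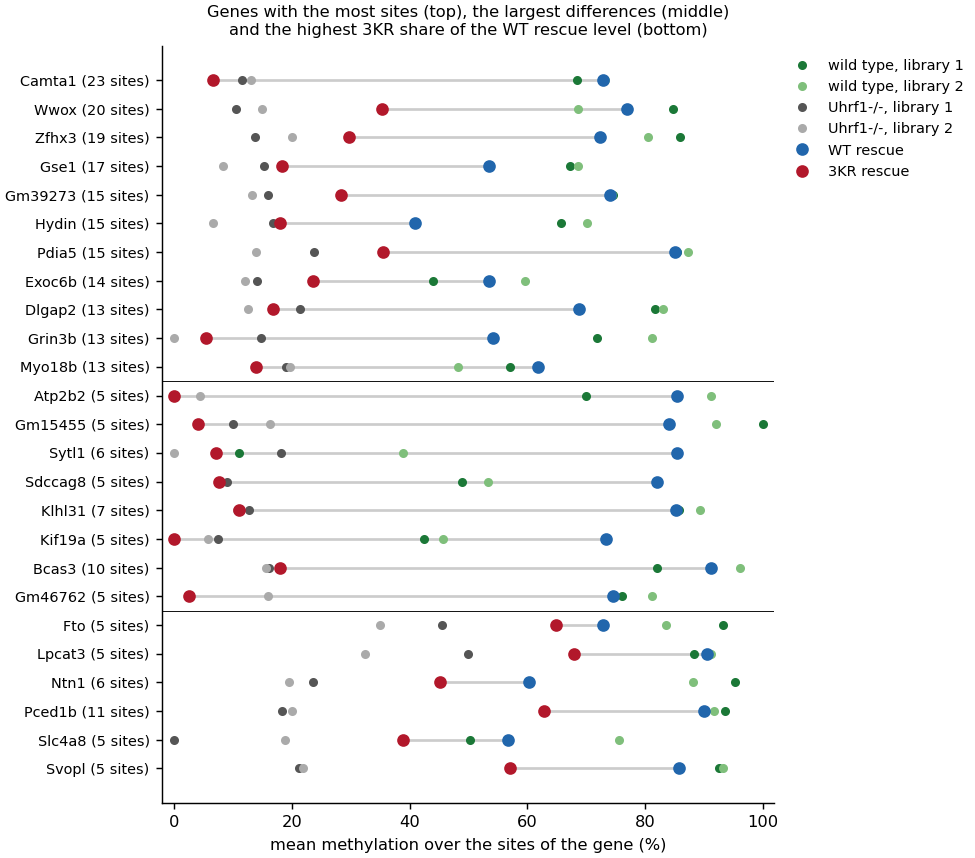
Mean methylation (horizontal axis, percent) over the sites of each gene in the 6 libraries, for 11 of the 12 methylated genes with the most sites (top), the 8 with the largest differences downward (middle) and the 6 with the highest share (bottom), with grey lines joining the rescues. The 3KR rescue lies left of the WT rescue in every gene, with a difference of -85.5 points in Atp2b2 and -8.02 points in Fto.

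The gene groups are described by their counts beside the 54.8% of all 582 genes that were at least 20 points lower and the median difference of -24.1 points over all of them. No member of any group was 20 points higher. Among genes of adhesion and extracellular matrix 12 of 16 were lower, with a median of -35.8 points; Celsr3, an atypical cadherin gene, read 49.5% and 21.5% in the rescues, and Hspg2, which encodes perlecan, 48.4% and 12.5%. Among motors and cytoskeleton 12 of 16 were lower (median -29.7), with Dst, a cytolinker gene, at 36.6% and 10.7%. Myh14, a nonmuscle myosin gene with 14 sites, read 22.5% and 9.04%; with reads pooled over its sites the levels were 8.71% in the WT rescue and 9.40% in the 3KR rescue, so its direction depended on the weighting. Among ion channels 10 of 18 were lower (median -25.1), with the calcium channel gene Cacna1d at 56.01% and 18.8%. Among regulators and members of the small GTPases 10 of 17 were lower (median -31.8), with Arhgap23, which encodes a GTPase-activating protein, at 81.1% and 26.1%, and the related Arhgap27, over 13 sites, at 28.1% and 12.2%.

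Homeobox and lineage transcription factors had 8 of 16 lower and a median of -16.8 points. Ebf3 read 79.3% and 18.9% in the rescues, Sox5 66.8% and 28.0%, and Tbx21, the T-bet gene of T cells, 47.9% and 19.5%. Zinc-finger and BTB genes had 6 of 14 lower (median -11.0), with Zfp423 at 67.1% and 18.3% and Zfp827, over 11 sites, at 22.5% and 11.2%. Kinases and phosphatases had 8 of 16 lower (median -18.2), with Mast4 at 89.8% and 34.9%. Of 7 solute carrier genes 4 were lower (median -35.8), with Slc17a7, the vesicular glutamate transporter, at 48.8% and 6.0%, and Slc44a2, a choline transporter-like gene with 8 sites, at 22.6% and 12.98%. Groups with low medians in the wild-type libraries also had small differences: the wild-type median was 12.3% for the homeobox and lineage group, 12.6% for the zinc-finger group and 58.1% for adhesion and matrix.

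Among 11 chromatin regulators 4 were lower, among them the histone methyltransferase genes Kmt2b and Setd1a and the mediator subunit gene Med24. Setd1a read 79.9% and 28.3% in the rescues and Med24 82.9% and 40.1%, and Kmt2b had a difference of -48.8 points. Of 3 genes of the Wnt, Notch, TGF-beta, FGF and hedgehog pathways, Notch2 was lower, at 66.1% and 33.2%. Of 2 imprinted genes, Kcnq1 was lower, at 37.9% and 9.30%, and of 2 germline genes, Mei1 was lower, at 43.5% and 17.8%, while Hormad2 read 17.4% and 7.58%. The only housekeeping gene measured differed by -11.3 points, and no pluripotency gene had 5 sites.

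Within a gene the sites lay in short blocks that could differ. The block of Camta1 at chr4:151485920-151486067 (mm10) held 12 of its 23 sites, all annotated as CpG island. Every site was at 0% in the 3KR rescue, from 18 to 20 reads each, against a mean of 80.8% in the WT rescue. The sites lie close enough to share reads, and 0 of 20 reads allows a level of up to 15%. The other 3 blocks of the gene read 4.44%, 17.8% and 16.8% in the 3KR rescue, against 81.6%, 57.7% and 57.8% in the WT rescue. In the 12-site block the Uhrf1-/- libraries read 3.49% and 6.49%, so methylation there was low without Uhrf1 too. The blocks of Wwox with 4 or more sites ran from 21.7% to 54.7% in the 3KR rescue. Their shares ran from 26.8% to 71.1%, so a gene mean can cover unlike blocks. All these blocks are intronic in Camta1 and Wwox by the authors' annotation.

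Stretches were formed from sites at most 5000 bases apart, after values had been seen, and are described without a test. Of 1175 stretches with at least 3 sites, a wild-type mean of at least 60% and at least 30 reads in the 3KR rescue, 55 (4.68%) had no methylated read there. The corresponding counts were 86 of 1222 (7.04%) and 63 of 1112 (5.67%) in the Uhrf1-/- libraries, 0 of 1320 in the WT rescue, and 0 of 908 and 0 of 1280 in the wild-type libraries. After the Camta1 block, examples are chr3:133557848-133557892, with 0% in the 3KR rescue from 30 reads at each of 3 sites and 46.8% in the WT rescue, and chr6:87143889-87143974 in Antxr1, an anthrax toxin receptor gene, with 0% from 24 to 27 reads at each of 3 sites and 39.1%. At their highest read number these zeros allow levels of up to 10% and 11.1%. The 3KR rescue was at or above the WT rescue at 27 of 1417 stretches (1.91%). The stretch of Hydin at chr8:110438861-110439001 was among them, with 53.8% in the 3KR rescue, 30.7% in the WT rescue, 83.5% in wild type and 12.3% in Uhrf1-/-.

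Some deeply covered stretches had a higher share. In 7 stretches with a median of at least 100 reads per site in the 3KR rescue and a wild-type mean of at least 60%, 65 sites in all, the WT rescue averaged 68.1% and the 3KR rescue 39.6%, a share of 58.2%. Single stretches ranged from 28.1% on chromosome 19 to 68.7% on chromosome 8. At the 8581 sites of the other stretches with such a wild-type mean the levels were 69.4% and 24.3%, a share of 35.1%. Not all deep stretches had a higher share: 3 with a median of at least 100 reads and a wild-type mean of 53.6% to 59.9%, on chromosomes 2, 5 and 9, had shares of 29.1%, 25.6% and 31.4%. The Uhrf1-/- libraries averaged 10.4% and 10.2% at the deep stretches against 14.7% and 15.3% elsewhere, a mean that mostly reflects 1 stretch of 46 sites. They were higher at chr11:58690377-58690392, with 34.5% and 38.2%, and at the single site chr8:20029391, with 36.8% and 35%. That stretch of 46 of the 65 sites lies at chr2:98662265-98667255, where single sites had up to 3680 reads in the 3KR rescue. This place and chr9:3001454-3001494 are known to collect reads of satellite repeats in mm10, though no repeat annotation was used here. Whether reads of several repeat copies were counted at these places was not tested. The chromosome 2 stretch read 72.5% and 77.8% in wild type, 9.499% and 9.35% without Uhrf1, 67.2% in the WT rescue and 40.7% in the 3KR rescue. The chromosome 9 stretch read 69.2% and 40.6% in the rescues over 3 sites. Further stretches were alike, chr9:35305300-35305534 at 77.6% and 43.4% and chr12:3109883-3110026 at 66.9% and 37.3%, each with Uhrf1-/- levels under 10%. Without the chromosome 2 stretch the share was 53.0% over 19 sites. With the minimum depth set to 50 reads it was 42.5% over 232 sites.

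**Figure D5:**
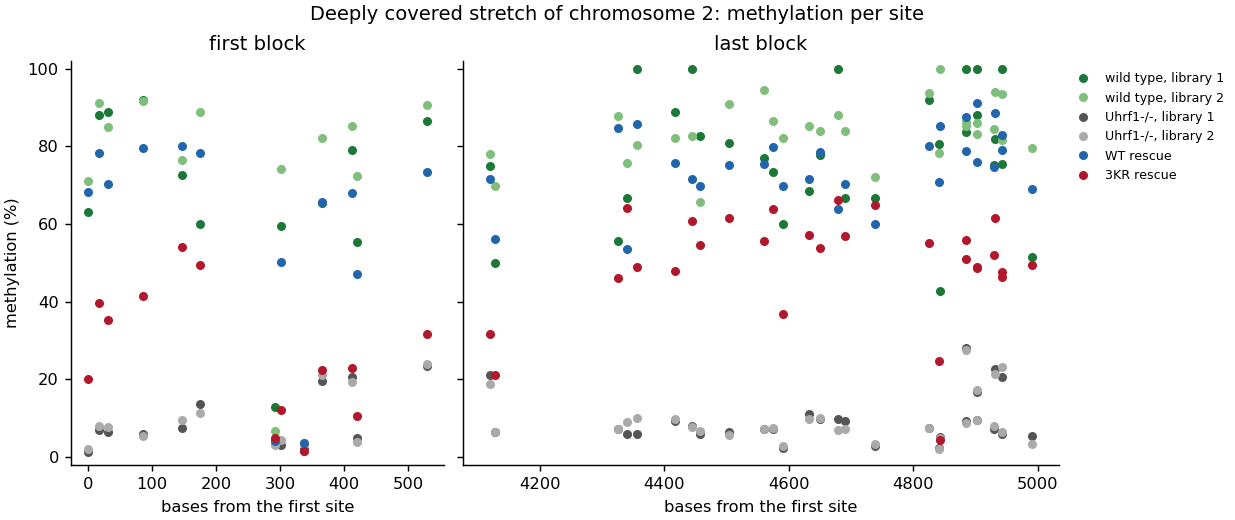
Methylation (vertical axis, percent) of single sites in the first and last block of the chromosome 2 stretch against the distance in bases from its first site, with 1 colour per library; the middle block of 4 sites is not drawn. Most 3KR values in the last block lie between the WT rescue and the Uhrf1-/- libraries, up to 66.1%, and 1 site near the end reads 4.41%.

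Shares over 50% also occurred outside the deep stretches. Of 1412 ordinary stretches with at least 3 sites and a wild-type mean of at least 60%, 24.6% had a share over 50%, and of the 44 with at least 200 reads in the 3KR rescue 15.9% did. Inside the chromosome 2 stretch the share was 45.1% in the first block of 13 sites and 66.0% in the last block of 29 sites. At 1 site of the last block, chr2:98667108 on the minus strand, the WT rescue read 85.4% from 41 reads and the 3KR rescue 4.41% from 68 reads. The adjacent plus-strand site read 70.9% in the WT rescue from 540 reads and 24.7% in the 3KR rescue from 1195 reads. Other minus-strand sites of the block read 21.1% to 61.5% in the 3KR rescue. At chr2:98667108 the wild-type libraries read 42.9% and 100%. This was the only site of 10372 called lower by edgeR's quasi-likelihood test, which borrowed the spread of the replicated groups (adjusted p = 0.0121).

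That test assumes that each lone rescue library varies like the replicated groups. Unlike Fisher's test, it was credited with a call, here and throughout, only where the rescues also lay 20 points or more apart. At single sites it called 1 lower (0.00964%) and 0 higher, and at an unadjusted p under 0.05 it gave 1532 and 13 sites, beside the 5568 and 45 of Fisher's test. On reads summed per gene it called 21 of 567 genes lower (3.70%) and 0 higher, with 230 and 3 at an unadjusted p under 0.05. Among the methylated genes with the most sites, Camta1 (edgeR adjusted p = 0.0422) and Pdia5 (edgeR adjusted p = 0.0482) were called. Genes called outside the named set include Tll2, a tolloid-like metalloprotease gene, with 71.5% in the WT rescue and 2.735% in the 3KR rescue over 12 sites, and L3mbtl2, a Polycomb-group gene, with 96.6% and 25.1% over 5 sites. Lhx9, a LIM homeobox gene, was also called, at 23.0% in the WT rescue and 0% in the 3KR rescue, from a wild-type mean of only 1.76%. These 3 were chosen after their values were seen.

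Few genes were higher in the 3KR rescue, and none by 20 points. St6galnac2, a sialyltransferase gene, read 18.5% in the 3KR rescue and 10.47% in the WT rescue over 5 promoter sites, with 31.2% and 21.9% in wild type and 1.67% and 0% in Uhrf1-/-. The difference rests on 1 site, with 12 of 13 reads methylated in the 3KR rescue and 11 of 25 in the WT rescue. At the other 4 sites the 3KR rescue read 0%, and with reads pooled over the 5 sites the levels were 11.8% and 11.6%. Alox12, a lipoxygenase gene, read 5.95% and 0% over 6 promoter sites, and Rbm47, an RNA-binding protein gene, 5.33% and 0% over 5. With reads pooled over the sites of Alox12 the 95% Wilson intervals were 3.39% to 11.0% and 0% to 5.27%, which treat reads of neighbouring sites as separate. Among the 157 genes with a wild-type mean under 5%, 5.95% was the highest 3KR level, and the WT rescue reached 26.3%.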

How the data were processed

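Per the file headers, the authors deposited counts of total, methylated and unmethylated reads per cytosine and strand for 6 libraries, with at least 5 reads in each library at every site. The submitters' processing notes name BSMAP 2.73, Trim Galore, cutadapt and the build mm10. The methylation caller is not given in the sources used here. All per-sample columns were mapped through the sample labels. The name of the WT rescue column carries a number with no stated meaning; it was matched because it names UHRF1 in knockout cells without 3KR, and every WT rescue value rests on that match. The authors' comparison columns were not used. The members, gene lists and tests were chosen with earlier results of these data known.

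Levels were computed as methylated over total reads. Counts by size used a difference of 20 points and at least 10 reads in both libraries. Genes came from RefSeq coordinates (GRCm38.p6), within 1000 bases and with at least 5 sites. Named were the 12 genes with the most sites among those with a wild-type mean of at least 50%, the 8 largest differences downward, the 6 highest shares (3KR level over WT rescue level) among genes with a WT rescue mean of at least 50%, genes at least 5 points higher (at most 6), and up to 3 genes per list by number of sites with a wild-type mean of at least 20%. Several lists are shown by only some of these, and some named genes are not reported here. A level of 0 was given an upper limit of 3 counts over the reads of the deepest site, since neighbouring sites share reads. Fisher's exact test and edgeR 4.0.16 (R 4.3.3) were tested on simulated data; edgeR left out units that were all methylated or all unmethylated in the 6 libraries. Python 3.11.15, numpy 2.4.6, pandas 2.3.3, scipy 1.17.1 and matplotlib 3.10.9 were used. Alternatives varied the read and site minimums, the size, the weighting and the sites left out.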

Additional observations from a re-analysis of the deposited data

How the results depend on the processing

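The direction of the difference between the rescues was the same under every alternative run. The mean difference of -30.1 points was -29.4 with reads pooled, -28.8 with at least 20 reads in both rescues, -32.4 with 1 site per 300 bases, -30.4 without sites above 200 reads and -30.5 without the deep stretches, ribosomal RNA and mitochondrial sites, a choice made after seeing the data. Sites at least 20 points lower numbered 2690 of 4772 with at least 20 reads, and edgeR called 1. Sites at least 20 points higher numbered 350 with at least 5 reads, 13 with at least 20 reads and 288 with each library thinned to 10 reads per site; 316 were higher by at least 10 points, 14 by at least 40 points, and edgeR called 0. The count of higher sites thus moved with depth, and its cause was not tested. The share (3KR level over WT rescue level) of 33.5% was 32.9% with at least 10 reads in both and 33.1% with 1 site per 300 bases. With the Uhrf1-/- mean subtracted from both rescues it was 15.6%, and 15.1% to 16.2% without either Uhrf1-/- library. Lower genes numbered 849 of 1367 with at least 3 sites, 44 of 99 with at least 10 sites and 21 by edgeR. Fisher's test gave 2610 of 4772 sites with at least 20 reads. In these counts fewer or more sites and genes entered by construction. At the deep stretches, all alternatives were added after seeing the data: the share of 58.2% was 61.5% with reads pooled, 42.5% from 50 reads, 59.9% from 200 reads, 59.7% with depth taken from the Uhrf1-/- libraries and 53.0% without the chromosome 2 stretch. In islands the share of 19.1% was 26.6% without the Camta1 block.

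No paired analysis was possible because each rescue has 1 library and the results by size come from no test. Leaving a wild-type library out of the gaps leaves no gap to give. A planned limma fit on percentages was not run on the data, because on simulated data it called unchanged sites. Classes by repeat and by CpG density across the genome were not analysed here, for lack of a genome sequence. Depth limits single sites: a median of 14 reads in the 3KR rescue moves a level by several points per read.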
